A study of Mus musculus with 15 samples.

Results

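The genes described here encode the citrate cycle, the pyruvate dehydrogenase complex that feeds it, the kinases and phosphatases that switch that complex off and on, and 3 proteins that move or convert its intermediates. They were taken by name as 32 genes of the 18193 genes that could be tested, with every probe set that the platform annotation gives to 1 of these symbols alone, which came to 69 of 45101 probe sets. Of the 32 genes, 19 encode citrate cycle enzymes or their subunits, 4 encode subunits of the pyruvate dehydrogenase complex, 4 its kinases, 2 its phosphatases and 3 the mitochondrial malic enzymes and the citrate carrier. The rule uses names and no signal. All 32 genes were tested and no filter on low signal was applied. The mean signal lay above the array median for 29 of them and below it for Pdk3, Me2 and Me3, whose values are given but cannot be read as a level.

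Liver RNA was measured on whole-genome arrays in 15 male mice, with 5 mice in each of 3 groups and 1 array a mouse. The C57BL/6J group was fed normal chow and given distilled water. The KKAy model group and the XKA-H group were KKAy mice, an obese diabetic strain that carries the yellow agouti allele, on a high-fat diet. The KKAy model mice received distilled water, and the XKA-H mice received Xiao-Ke-An (XKA), a Chinese herbal medicine made of several herbs, by daily gavage at 1.5 g/kg. Dosing with XKA or water began at an age of 10 weeks and lasted 32 days. The C57BL/6J mice came from another supplier than the KKAy mice, so strain, diet and supplier cannot be told apart in any comparison with C57BL/6J. By the labels and methods, XKA-H differs from the KKAy model in the treatment alone, and that comparison asks what XKA does to these transcripts.

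The pyruvate dehydrogenase complex turns pyruvate from glycolysis into acetyl-CoA inside mitochondria. Its kinases phosphorylate and silence it, sparing pyruvate for glucose synthesis when fat is being burned, and its phosphatases restore it. The citrate cycle oxidises acetyl-CoA to carbon dioxide and passes the electrons to the respiratory chain, and in liver it also supplies oxaloacetate and malate for gluconeogenesis and citrate for fat synthesis.

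Some features of the arrays touch the results. The deposited array medians ran from 127 to 182, and after scaling each array to a median of 1000 the median gene was 0.15 log2 units higher in KKAy model than in C57BL/6J livers. Without scaling that shift was -0.04, and with quantile normalization it was 0.04. The 32 genes together were also low in single arrays after scaling. On the log2 scale they lay below their group mean by 0.30 in XKA-H mouse 1 and by 0.15 in XKA-H mouse 5. The gap was 0.24 in KKAy model mouse 5 and 0.16 in C57BL/6J mouse 3. As deposited the deviations of these arrays, in that order, were -0.25, 0.02, -0.03 and 0.02. After quantile normalization they were -0.20, 0.05, 0.0094 and -0.02, so only XKA-H mouse 1 stayed low under each scaling. The median SD of a member within a group was 0.26 on the log2 scale after median scaling, 0.19 as deposited and 0.17 after quantile normalization. Acute phase genes stood apart in KKAy model mouse 3 and XKA-H mouse 1, by 1.13 and 1.24 on the log2 scale above their group means. The part of these shifts in the results was not tested beyond the values given without those arrays.

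Compared with C57BL/6J, the KKAy model livers had higher transcript signals for 5 of the 32 genes. These were Pdhx and Pdhb, subunits of the pyruvate dehydrogenase complex, Sucla2 and Suclg2, subunits of succinyl-CoA synthetase, and Sdha, the flavoprotein of succinate dehydrogenase. The rises ran from 1.37-fold for Pdhb to 1.66-fold for Pdhx. No member passed the test in the lower direction after median scaling, whereas 3 were higher and 4 lower as deposited and 5 were higher and 5 lower after quantile normalization. The 5 genes are 15.6% of the members, while 10.5% of all genes tested were called higher and 2.36% lower in this comparison (limma, Benjamini-Hochberg adjusted p under 0.05). At an unadjusted p under 0.05, 10 members were higher and 3 lower, against 19.4% and 5.68% of all genes. Without C57BL/6J mouse 3 or mouse 4 the count of higher members was 2, and without KKAy model mouse 2 or mouse 4 it was 3. Without both KKAy model mouse 3 and XKA-H mouse 1 it was 4. The shares of all genes called with these mice left out are not given, so the counts describe the members only. The median change of the 32 genes was 0.19 on the log2 scale, and that of all genes was 0.15.

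Between XKA-H and the KKAy model, no member was called in either direction, where 0.0660% of all genes were called higher and 0.110% lower. At an unadjusted p under 0.05, Pdk4 and Cs were lower and no member was higher, against 5.82% and 2.76% of all genes. The median change of the members was -0.12, and the median of all genes was -0.061. Of the 32 estimates 26 lay below 0 after median scaling, 23 as deposited and 22 after quantile normalization, and of all genes 58.4% lay below 0 after median scaling. Between XKA-H and C57BL/6J, Pdhx and Sucla2 were called higher and Cs and Pdp2 lower, where 5.49% and 1.88% of all genes were called. At an unadjusted p under 0.05, 5 members were higher and 3 lower there, against 13.9% and 5.40% of all genes. The comparisons share groups, so their values are given side by side and were not counted against each other.

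**Figure D1:**
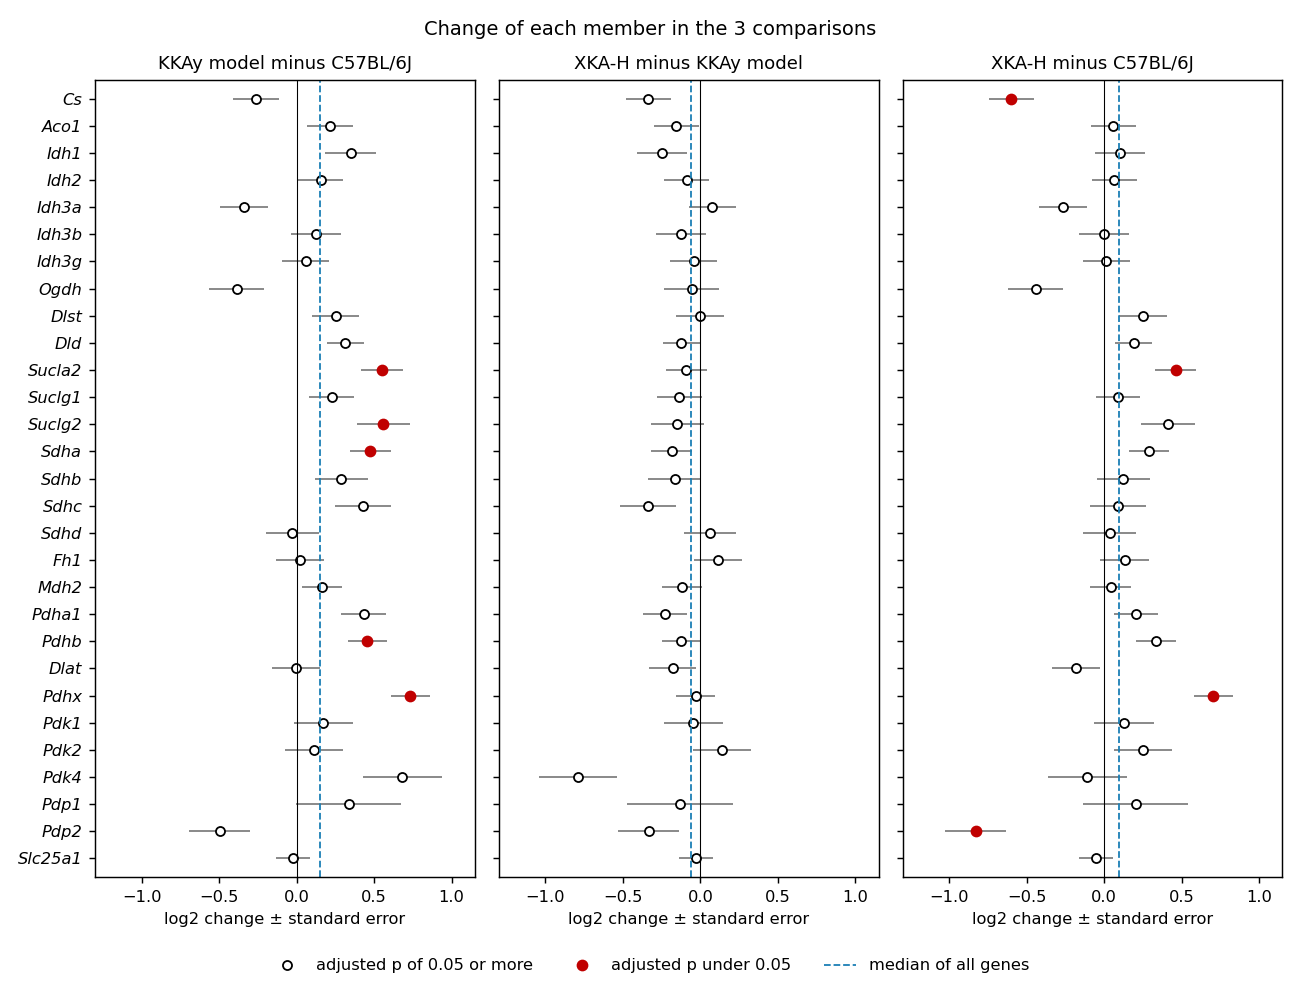
Log2 change of 29 members in each of the 3 comparisons, with the standard error as a horizontal bar, a filled point for an adjusted p under 0.05 and a dashed line at the median of all genes. Pdk3, Me2 and Me3, which lie below the array median, are left out. Pdhx sits farthest to the right in both comparisons with C57BL/6J, at 0.73 and 0.70, and Pdk4 farthest to the left between XKA-H and the KKAy model, at -0.79 with an adjusted p of 0.293. Under the other scalings, several members near 0 change sign, as the plot of the 3 scalings shows.

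The 4 members called between XKA-H and C57BL/6J differ in direction, and their promoters are shown so that the higher pair, Pdhx and Sucla2, can be set beside the lower pair, Cs and Pdp2. Each line gives the 250 bases before the annotated start, read 5′ to 3′ on the strand of the gene from RefSeq on GRCm38.p6. Capitals mark CCAAT and GGGCGG on either strand, which are the CCAAT box and the GC box of many housekeeping promoters.
Pdhx, chr2:103073514-103073763 (- strand): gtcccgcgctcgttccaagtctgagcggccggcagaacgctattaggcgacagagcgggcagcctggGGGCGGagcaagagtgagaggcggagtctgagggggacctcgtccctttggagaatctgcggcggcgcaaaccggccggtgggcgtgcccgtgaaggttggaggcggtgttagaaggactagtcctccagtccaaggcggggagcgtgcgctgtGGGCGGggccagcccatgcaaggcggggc
Sucla2, chr14:73552536-73552785 (+ strand): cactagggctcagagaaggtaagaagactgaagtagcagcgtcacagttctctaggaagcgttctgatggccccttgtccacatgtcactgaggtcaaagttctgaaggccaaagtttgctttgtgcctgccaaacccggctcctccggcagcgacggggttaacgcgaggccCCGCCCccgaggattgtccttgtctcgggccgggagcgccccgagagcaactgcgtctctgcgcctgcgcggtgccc
Cs, chr10:128337477-128337726 (+ strand): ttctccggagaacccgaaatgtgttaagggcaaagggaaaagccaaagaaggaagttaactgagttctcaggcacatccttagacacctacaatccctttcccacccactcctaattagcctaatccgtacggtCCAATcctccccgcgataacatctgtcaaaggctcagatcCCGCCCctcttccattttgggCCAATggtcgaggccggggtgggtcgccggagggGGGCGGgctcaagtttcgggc
Pdp2, chr8:104591222-104591471 (+ strand): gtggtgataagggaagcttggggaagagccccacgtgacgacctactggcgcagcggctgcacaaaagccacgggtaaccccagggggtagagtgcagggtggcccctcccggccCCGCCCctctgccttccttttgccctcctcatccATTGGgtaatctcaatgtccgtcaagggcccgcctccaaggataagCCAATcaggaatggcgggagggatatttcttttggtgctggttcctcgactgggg
Each of the 4 windows held at least 1 GC box, and CCAAT was found in the Cs and Pdp2 windows and not in those of Pdhx and Sucla2. CCAAT was also in the windows of Pdhb, Sdha and Suclg2, which were called higher in the KKAy model than in C57BL/6J. The split between the printed pairs therefore does not hold over the other called members. Of the 28 members with a window, 16 held CCAAT (57.1%) and 17 held GGGCGG (60.7%), against 33.8% and 32.7% of 32851 windows of all RefSeq genes, which include non-coding loci. The letters CCGGAAG, bound by ETS factors, were in 7.14% of members' windows and 6.91% of all windows. The letters AAGGTCA, which several nuclear receptors bind, were in no member's window and in 4.08% of all windows. Both strands were searched, and no match overlaps another in the windows printed. A match is a description of these letters only.

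In the pyruvate dehydrogenase complex, Pdhx, the protein that anchors the dihydrolipoyl dehydrogenase subunit to the core, was higher in every KKAy liver than in every C57BL/6J liver. Signals are given as multiples of the array median, in the order mouse 1 to mouse 5, and Pdhx read 8.74, 8.83, 6.88, 7.58 and 9.696 in the C57BL/6J mice, 17.7, 13.5, 13.8, 12.7 and 11.8 in the KKAy model mice and 12.4, 14.1, 13.96, 13.5 and 13.5 in the XKA-H mice. The lowest KKAy value, in KKAy model mouse 5, lay above the highest C57BL/6J value, in mouse 5, with or without XKA. Of the 32 genes, 4 had KKAy model values all above the C57BL/6J values and none all below, against 8.17% and 2.34% of all genes, and in XKA-H this held for 2 genes above, Pdhx and Sucla2, against 5.01%. The means of Pdhx were 8.34 ± 1.11, 13.9 ± 2.25 and 13.5 ± 0.670 in the 3 groups in that order (SD, n = 5). Its log2 change was 0.73 (standard error 0.13, adjusted p = 0.000551) between the KKAy model and C57BL/6J, 0.70 (standard error 0.13, adjusted p = 0.0012) between XKA-H and C57BL/6J, and -0.03 (standard error 0.13, adjusted p = 0.97) between XKA-H and the KKAy model. Pdhx stayed called in all 28 alternative settings of both comparisons with C57BL/6J. In whole liver, fewer cells of a type and less RNA per cell cannot be told apart, here and in all results that follow.

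Pdhb, the beta subunit of the pyruvate decarboxylating enzyme, was higher in the KKAy model than in C57BL/6J. Its signal was 79.5, 92.1, 66.6, 75.7 and 86.96 in the C57BL/6J mice, 109, 119, 109, 116 and 94.9 in the KKAy model mice and 86.3, 103, 120.3, 109.8 and 86.4 in the XKA-H mice. All 5 KKAy model values lay above all 5 C57BL/6J values, while XKA-H mice 1 and 5 lay inside the C57BL/6J range. Between the KKAy model and C57BL/6J the log2 change was 0.46 (standard error 0.13, adjusted p = 0.0218). Its XKA-H values gave 0.33 (standard error 0.13, adjusted p = 0.132) against C57BL/6J and -0.12 (standard error 0.13, adjusted p = 0.845) against the KKAy model, and neither was called. The call of Pdhb against C57BL/6J was lost in 2 of 13 alternative settings, with adjusted p up to 0.115. One of these was the intensities as deposited, at 0.26 (adjusted p = 0.0706). It was also lost without KKAy model mouse 2 or 4 or C57BL/6J mouse 3 or 4, with adjusted p up to 0.0689.

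Pdha1, the catalytic alpha subunit that the kinases phosphorylate, had a log2 change close to that of Pdhb, 0.43 (standard error 0.14, adjusted p = 0.0528), and was not called. Its signal was 75.3, 61.1, 48.2, 57.03 and 55.6 in the C57BL/6J mice, 84.9, 84.5, 75.6, 93.6 and 61.9 in the KKAy model mice and 53.03, 80.5, 71.8, 69.96 and 66.3 in the XKA-H mice. KKAy model mouse 5 lay within the C57BL/6J range and the other 4 above it. Dlat, the dihydrolipoamide acetyltransferase that forms the core, was nearly level between the KKAy model and C57BL/6J, with means of 19.1 ± 3.07 and 19.1 ± 3.15 and an estimate of -0.0034 (standard error 0.15, adjusted p = 0.992). Dld, the dihydrolipoyl dehydrogenase shared with the oxoglutarate dehydrogenase complex, had 0.31 (standard error 0.12, adjusted p = 0.0965). In XKA-H the estimates against the KKAy model were -0.23 (adjusted p = 0.703) for Pdha1, -0.18 (adjusted p = 0.801) for Dlat and -0.12 (adjusted p = 0.833) for Dld. None of the subunits was called between XKA-H and the KKAy model.

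**Figure D2:**
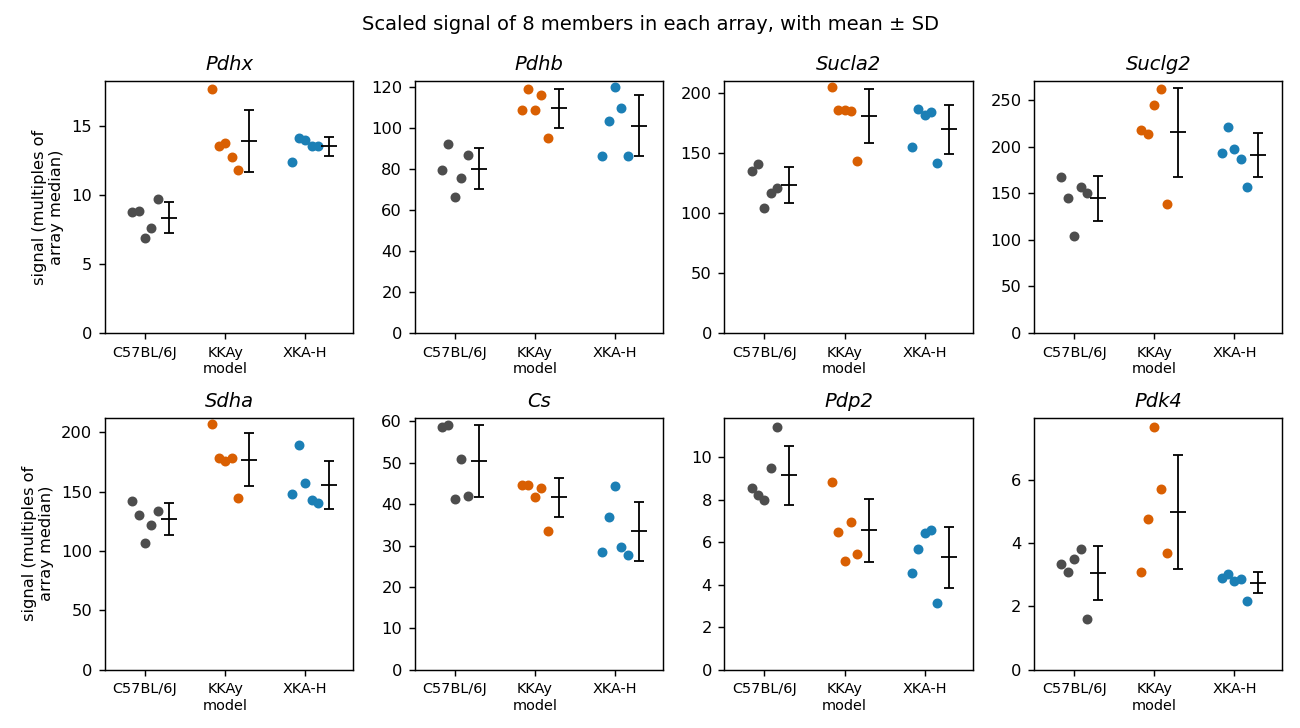
Signal of 8 members, as multiples of the array median, in each mouse of the 3 groups, with the mean and SD beside the points, on axes that start at 0. All KKAy model points of Pdhx, Pdhb, Sucla2 and Sdha lie above the C57BL/6J points, and all XKA-H points of Pdk4 lie below the KKAy model points. These are median-scaled values, and the call of Pdhb is lost as deposited.

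Among the pyruvate dehydrogenase kinases, no gene was called in any comparison. Pdk4, the kinase that fasting and PPARA induce, read 3.35, 3.09, 3.502, 3.81 and 1.62 in the C57BL/6J mice, 3.08, 4.77, 7.67, 5.72 and 3.68 in the KKAy model mice and 2.89, 3.04, 2.798, 2.87 and 2.18 in the XKA-H mice. The 5 XKA-H values all lay below the 5 KKAy model values, whereas the KKAy model and C57BL/6J values overlapped and C57BL/6J mouse 5 was far below the other mice of its group. Groups that do not overlap in this direction were found in 1.01% of all genes between XKA-H and the KKAy model. The log2 change of Pdk4 was -0.79 (standard error 0.25, adjusted p = 0.293) between XKA-H and the KKAy model, with an unadjusted p of 0.00563 and an exact two-sided permutation p of 0.00794, the smallest that 5 arrays against 5 allow. It was 0.68 (standard error 0.25, adjusted p = 0.0877) between the KKAy model and C57BL/6J and -0.11 (standard error 0.25, adjusted p = 0.876) between XKA-H and C57BL/6J. Without KKAy model mouse 3 and XKA-H mouse 1 the difference of XKA-H from the KKAy model was -0.64 (adjusted p = 0.537). The methods describe killing in the fed state and also blood taken fasting, so the feeding state of these livers is not settled.

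Pdk1, a kinase best known from hypoxic cells, had means of 51.8 ± 7.38, 59.4 ± 14.2 and 58.03 ± 16.4 in C57BL/6J, KKAy model and XKA-H mice (SD, n = 5), and its log2 change between the KKAy model and C57BL/6J was 0.17 (adjusted p = 0.639). Pdk2, a kinase found in most tissues, had means of 3.66 ± 0.672, 3.93 ± 0.545 and 4.38 ± 0.850 and a change of 0.11 (adjusted p = 0.772). Neither was called in any comparison. Pdk3 stayed below the array median of 1000 in all 15 arrays, from 60.2 to 740.4 units, and no level is read from it.

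Of the phosphatases, Pdp2, whose product is known as the insulin-responsive form in liver and fat, was lower in XKA-H than in C57BL/6J. Its signal was 8.53, 8.23, 8.003, 9.49 and 11.4 in the C57BL/6J mice, 8.81, 6.497, 5.104, 6.95 and 5.42 in the KKAy model mice and 4.56, 5.69, 6.45, 6.56 and 3.16 in the XKA-H mice. Every XKA-H value lay below every C57BL/6J value, which held for 1.94% of all genes in this direction, and in the KKAy model mice 2 to 5 lay below the C57BL/6J range while mouse 1 lay inside it. The log2 change was -0.83 (standard error 0.20, adjusted p = 0.0121) between XKA-H and C57BL/6J, so the C57BL/6J signal was 1.77 times that of XKA-H. It was -0.49 (standard error 0.20, adjusted p = 0.114) between the KKAy model and C57BL/6J, which was not called after median scaling and was called with the intensities as deposited, at -0.69 (adjusted p = 0.0109), and after quantile normalization, at -0.65 (adjusted p = 0.0166). Against the KKAy model the XKA-H estimate was -0.33 (standard error 0.20, adjusted p = 0.68). Pdp1, the calcium-activated phosphatase, lay close to the array median, with a KKAy model minus C57BL/6J change of 0.34 (adjusted p = 0.605) and C57BL/6J values between 0.721 and 2.01 times the array median.

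At the entry to the cycle, Cs, citrate synthase, was lower in XKA-H than in C57BL/6J. Its signal was 58.7, 59.2, 41.2, 50.8 and 41.9 in the C57BL/6J mice, 44.6, 44.7, 41.7, 43.98 and 33.6 in the KKAy model mice and 28.4, 36.98, 44.3, 29.8 and 27.7 in the XKA-H mice. XKA-H mice 1, 2, 4 and 5 lay below the C57BL/6J range and XKA-H mouse 3 inside it. The log2 change was -0.60 (standard error 0.15, adjusted p = 0.0157) against C57BL/6J, -0.33 (standard error 0.15, adjusted p = 0.535) against the KKAy model and -0.26 (standard error 0.15, adjusted p = 0.289) between the KKAy model and C57BL/6J. The last of these was called with the intensities as deposited, at -0.46 (adjusted p = 0.00843), and after quantile normalization, at -0.45 (adjusted p = 0.0022). The 3 probe sets of Cs did not move alike, as described with the probe sets.

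Aco1, the cytosolic aconitase that doubles as an iron sensor, changed by an estimated 0.21 (adjusted p = 0.4) on the log2 scale between the KKAy model and C57BL/6J. Idh1 and Idh2, the cytosolic and mitochondrial NADP-dependent isocitrate dehydrogenases, had 0.35 (adjusted p = 0.185) and 0.16 (adjusted p = 0.57). None of the 3 was called in any comparison. Means of Idh1 were 264 ± 48.9, 335 ± 53.7 and 281 ± 33.3 in C57BL/6J, KKAy model and XKA-H mice (SD, n = 5).

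The NAD-dependent isocitrate dehydrogenase, the rate-setting form of the cycle, is built from Idh3a, its catalytic subunit, and Idh3b and Idh3g, its regulatory subunits. Idh3a read 33.3, 39.2, 26.5, 36.9 and 32.8 in the C57BL/6J mice, 32.5, 26.3, 26.3, 26.9 and 21.3 in the KKAy model mice and 19.6, 27.5, 33.6, 34.9 and 26.7 in the XKA-H mice. KKAy model mice 2, 3 and 5 lay below the lowest C57BL/6J value, mouse 4 just above it and mouse 1 well inside the range. The log2 change between the KKAy model and C57BL/6J was -0.34 (standard error 0.15, adjusted p = 0.17), which was not called after median scaling and was called as deposited, at -0.53 (adjusted p = 0.00535). Idh3b and Idh3g had 0.12 (adjusted p = 0.705) and 0.059 (adjusted p = 0.865), and both of these estimates turned negative as deposited, at -0.07 and -0.13. For XKA-H against the KKAy model the 3 subunits had 0.078, -0.12 and -0.044, with adjusted p of 0.886, the lowest of the 3, or more.

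In the oxoglutarate dehydrogenase complex, Ogdh, the subunit that decarboxylates oxoglutarate, read 17.6, 14.5, 12.9, 16.2 and 18.1 in the C57BL/6J mice, 12.1, 14.7, 10.8, 14.96 and 8.67 in the KKAy model mice and 9.32, 16.8, 13.3, 10.9 and 9.13 in the XKA-H mice. The groups overlapped, with KKAy model mice 1, 3 and 5 and XKA-H mice 1, 4 and 5 below the lowest C57BL/6J value. Its log2 change was -0.39 (standard error 0.18, adjusted p = 0.177) between the KKAy model and C57BL/6J and -0.44 (standard error 0.18, adjusted p = 0.161) between XKA-H and C57BL/6J. Neither was called after median scaling, and both were called as deposited, at -0.58 (adjusted p = 0.0139) and -0.60 (adjusted p = 0.0151). Dlst, the succinyltransferase core of the same complex, had an estimate on the other side of 0, 0.25 (adjusted p = 0.337), in the KKAy model and 0.25 (adjusted p = 0.415) in XKA-H against C57BL/6J.

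Succinyl-CoA synthetase, the step of the cycle that makes ATP or GTP directly, is built from Suclg1, its shared alpha subunit, and 1 of the beta subunits Sucla2, which uses ADP, and Suclg2, which uses GDP. Both beta subunits were higher in the KKAy model than in C57BL/6J. Sucla2 read 136, 141, 104, 116 and 121 in the C57BL/6J mice, 205, 186, 186, 185 and 143 in the KKAy model mice and 156, 187, 182, 185 and 142 in the XKA-H mice. All KKAy model and XKA-H values lay above all C57BL/6J values, with KKAy model mouse 5 and XKA-H mouse 5 nearest to them. The log2 change of Sucla2 was 0.55 (standard error 0.13, adjusted p = 0.00964) in the KKAy model and 0.46 (standard error 0.13, adjusted p = 0.0411) in XKA-H, both against C57BL/6J, and -0.09 (standard error 0.13, adjusted p = 0.907) between XKA-H and the KKAy model. The call in XKA-H was lost when any 1 of 8 mice was left out, KKAy model 2 or 4, XKA-H 2, 3 or 4, or C57BL/6J 3, 4 or 5, with adjusted p up to 0.116. With the mean of its probe sets, the KKAy model change was 0.31 (adjusted p = 0.62) and the XKA-H change 0.05 (adjusted p = 0.97).

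Suclg2 read 167, 145, 104, 157 and 151 in the C57BL/6J mice, 218, 214, 244, 262 and 138 in the KKAy model mice and 194, 221, 198, 186 and 157 in the XKA-H mice. KKAy model mouse 5 lay inside the C57BL/6J range and the other 4 above it. The log2 change between the KKAy model and C57BL/6J was 0.56 (standard error 0.17, adjusted p = 0.037), and it was no longer called as deposited, at 0.37 (adjusted p = 0.0565), or without both KKAy model mouse 3 and XKA-H mouse 1, at 0.51 (adjusted p = 0.0907). The call was lost in 5 of 13 alternative settings and when any 1 of 8 mice was left out, KKAy model 1, 2, 3 or 4 or C57BL/6J 2, 3, 4 or 5, with adjusted p up to 0.117. In XKA-H it was 0.41 (standard error 0.17, adjusted p = 0.181) against C57BL/6J and -0.15 (adjusted p = 0.867) against the KKAy model. Suclg1 had 0.23 (adjusted p = 0.357) between the KKAy model and C57BL/6J and was not called in any comparison.

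Succinate dehydrogenase, which is also complex II of the respiratory chain, is built from the flavoprotein Sdha, the iron-sulfur protein Sdhb and the membrane anchors Sdhc and Sdhd. Sdha was higher in the KKAy model than in C57BL/6J and read 142, 130.4, 107, 122 and 134 in the C57BL/6J mice, 207, 178, 176, 179 and 145 in the KKAy model mice and 148, 189, 158, 143 and 140.2 in the XKA-H mice. All 5 KKAy model values lay above all 5 C57BL/6J values, and XKA-H mouse 5 lay inside the C57BL/6J range and mouse 4 just above it. The log2 change was 0.47 (standard error 0.13, adjusted p = 0.0208) in the KKAy model against C57BL/6J, 0.29 (standard error 0.13, adjusted p = 0.225) in XKA-H against C57BL/6J and -0.18 (standard error 0.13, adjusted p = 0.74) between XKA-H and the KKAy model. The call was lost without KKAy model mouse 1 or C57BL/6J mouse 3 or 4, with adjusted p up to 0.0649. Against C57BL/6J, the KKAy model estimates for Sdhb, Sdhc and Sdhd were 0.29 (adjusted p = 0.322), 0.43 (adjusted p = 0.134) and -0.027 (adjusted p = 0.95), and none was called. The largest of the XKA-H minus KKAy model estimates in this complex was that of Sdhc, -0.34 (standard error 0.18, adjusted p = 0.642), from means of 43.5 ± 12.2 and 54.1 ± 10.2.

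At the end of the cycle, Fh1, fumarase, and Mdh2, mitochondrial malate dehydrogenase, had log2 changes of 0.02 (adjusted p = 0.959) and 0.16 (adjusted p = 0.491) between the KKAy model and C57BL/6J, and both were below 0 as deposited. The XKA-H estimates against the KKAy model were 0.11 (adjusted p = 0.894) and -0.12 (adjusted p = 0.852). Slc25a1, the carrier that exports citrate from mitochondria for fat synthesis, had means of 26.9 ± 1.82, 26.5 ± 3.44 and 25.9 ± 2.002 in C57BL/6J, KKAy model and XKA-H mice (SD, n = 5). Its log2 change between the KKAy model and C57BL/6J was -0.026 (adjusted p = 0.919), and after quantile normalization it was called lower at -0.23 (adjusted p = 0.0286). Me2 and Me3, the mitochondrial malic enzymes, had mean signals below the array median, and neither was called in any comparison, with -0.23 (adjusted p = 0.745) and -0.55 (adjusted p = 0.726) between the KKAy model and C57BL/6J.

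**Figure D3:**
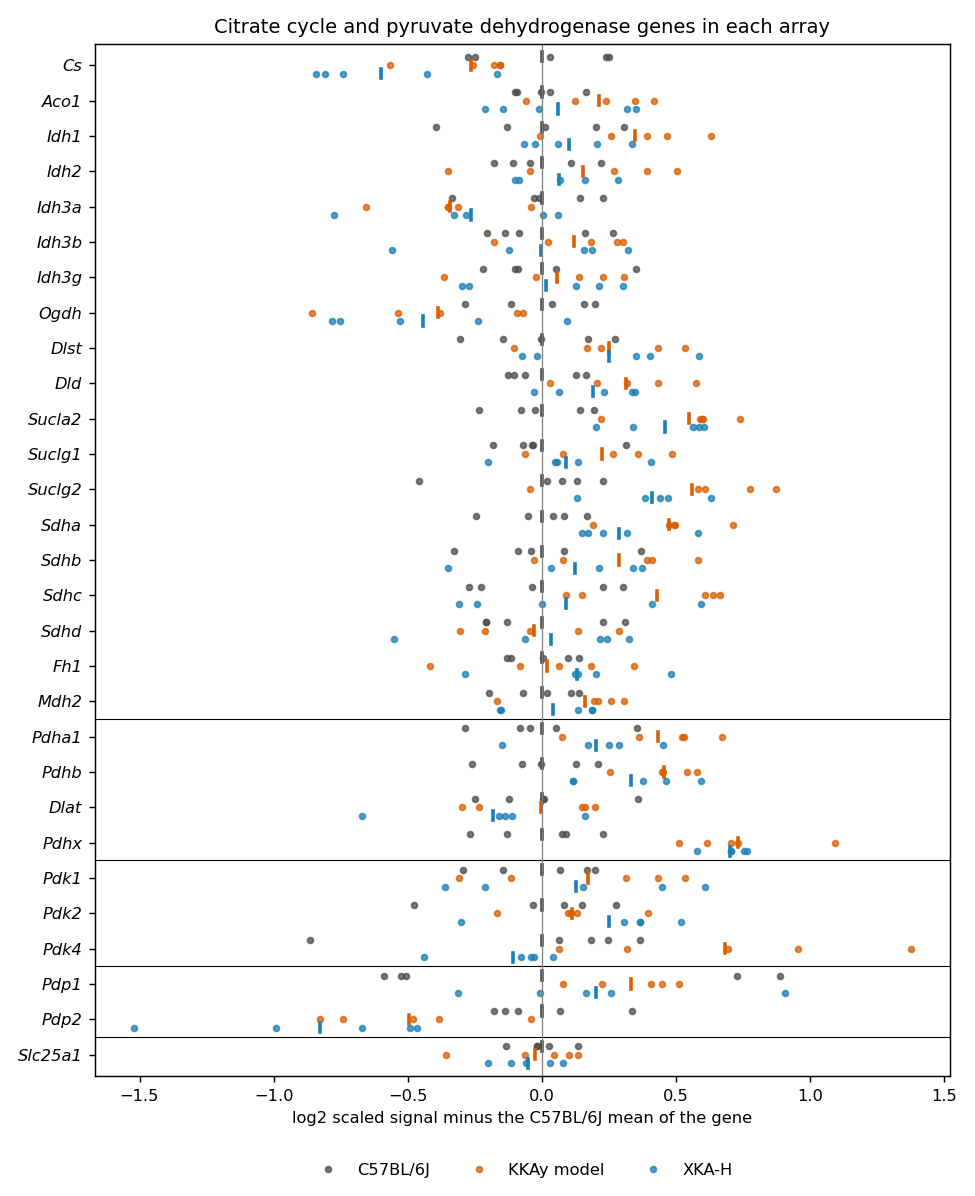
Log2 scaled signal of 29 members in each mouse, minus the C57BL/6J mean of that gene, with a short bar at each group mean and lines between the groups of genes. In Pdhx and Sucla2 the KKAy model and XKA-H points all lie to the right of the C57BL/6J points, in Pdp2 the XKA-H points all lie to the left, and in most other genes the 3 groups overlap. Many rows hold 1 low KKAy model point, which for Sucla2, Suclg2, Sdha and Pdhb is mouse 5.

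A ratio between genes of 1 array is the same as deposited and after median scaling, though not after quantile normalization. In a description with no test, 13 such ratios were formed after the values were seen, and the KKAy model mice lay wholly outside the C57BL/6J range in 6 of them and the XKA-H mice in 5. The share of all gene pairs that would do so was not computed, so these counts have no background to be set against. Of single genes, 8.17% lay wholly above C57BL/6J and 2.34% wholly below it in the KKAy model, and 5.01% and 1.94% in XKA-H. The ratios are on the log2 scale relative to the C57BL/6J mean, and the C57BL/6J mice themselves spread around 0. Pdhx over Dlat was 0.74 (range 0.42 to 0.97) in the KKAy model and 0.89 (range 0.59 to 1.25) in XKA-H, with C57BL/6J from -0.27 to 0.22. No KKAy liver reached into the C57BL/6J range. Pdhx over Pdha1 was 0.30 (range -0.054 to 0.56) and 0.50 (range 0.31 to 0.73) with C57BL/6J up to 0.31, and Pdhx over Pdhb was 0.28 (range 0.075 to 0.65) and 0.37 (range 0.16 to 0.59) with C57BL/6J up to 0.10, so in both of these the KKAy model overlapped C57BL/6J and XKA-H did not.

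Ogdh over Dlst was -0.64 (range -0.76 to -0.53) in the KKAy model and -0.69 (range -0.88 to -0.31) in XKA-H, with C57BL/6J from -0.29 to 0.20. Ogdh over Dld was -0.70 (range -0.95 to -0.41) in the KKAy model, outside the C57BL/6J range, and -0.63 (range -0.86 to -0.14) in XKA-H, which overlapped its low end of -0.28. Cs over Mdh2, the enzymes that use and make oxaloacetate, was -0.42 (range -0.56 to -0.37) in the KKAy model and -0.64 (range -0.88 to -0.35) in XKA-H, with C57BL/6J from -0.27 to 0.13. In Ogdh over Dlst and Cs over Mdh2 no KKAy liver reached into the C57BL/6J range. Idh3a over Idh3b was -0.46 (range -0.59 to -0.34) in the KKAy model, below the C57BL/6J range, and -0.26 (range -0.47 to -0.10) in XKA-H, which overlapped it. Idh3a over Idh3g was -0.40 (range -0.54 to -0.29) in the KKAy model and -0.28 (range -0.50 to -0.027) in XKA-H, and both overlapped the C57BL/6J range, whose low end was -0.36. Sdha over Sdhd was 0.50 (range 0.36 to 0.69) in the KKAy model and 0.25 (range -0.07 to 0.78) in XKA-H. Sucla2 over Suclg2 was -0.0094 (range -0.28 to 0.27) in the KKAy model, on both sides of 0. Sdha over Sdhb, Sdha over Sdhc and Sucla2 over Suclg1 also overlapped C57BL/6J in both KKAy groups. A ratio shows unequal change and not which of its members moved. Each ratio also rests on the brightest probe set of each gene alone. Between the KKAy model and C57BL/6J, the brightest probe set of Cs gave -0.26 and its others 0.042 and 0.41. For Idh3a the brightest gave -0.34 and the others 0.27, 0.29 and -0.15. The ratios of Cs and Idh3a are therefore particular to the probe sets used.

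The split between higher and lower members depended on the scaling. Between the KKAy model and C57BL/6J, 5 members were higher and 0 lower after median scaling. As deposited, 3 were higher (Pdhx, Sucla2 and Sdha) and 4 lower (Cs, Idh3a, Ogdh and Pdp2), where 6.15% and 5.59% of all genes were called. After quantile normalization the same 5 were higher as after median scaling and 5 were lower, the 4 named and Slc25a1, where 8.72% and 6.00% of all genes were called. The members' median change was 0.19 after median scaling, 0.0013 as deposited and 0.0091 after quantile normalization. Between XKA-H and C57BL/6J, Cs, Idh3a, Ogdh and Pdp2 were lower and 2 members higher under both of the other scalings, where 3.83% of all genes were higher and 4.22% lower as deposited and 5.58% and 4.36% after quantile normalization. Pdhx and Sucla2 were higher and Cs and Pdp2 lower against C57BL/6J in XKA-H under all 3 scalings. No member was called between XKA-H and the KKAy model under any of them.

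**Figure D4:**
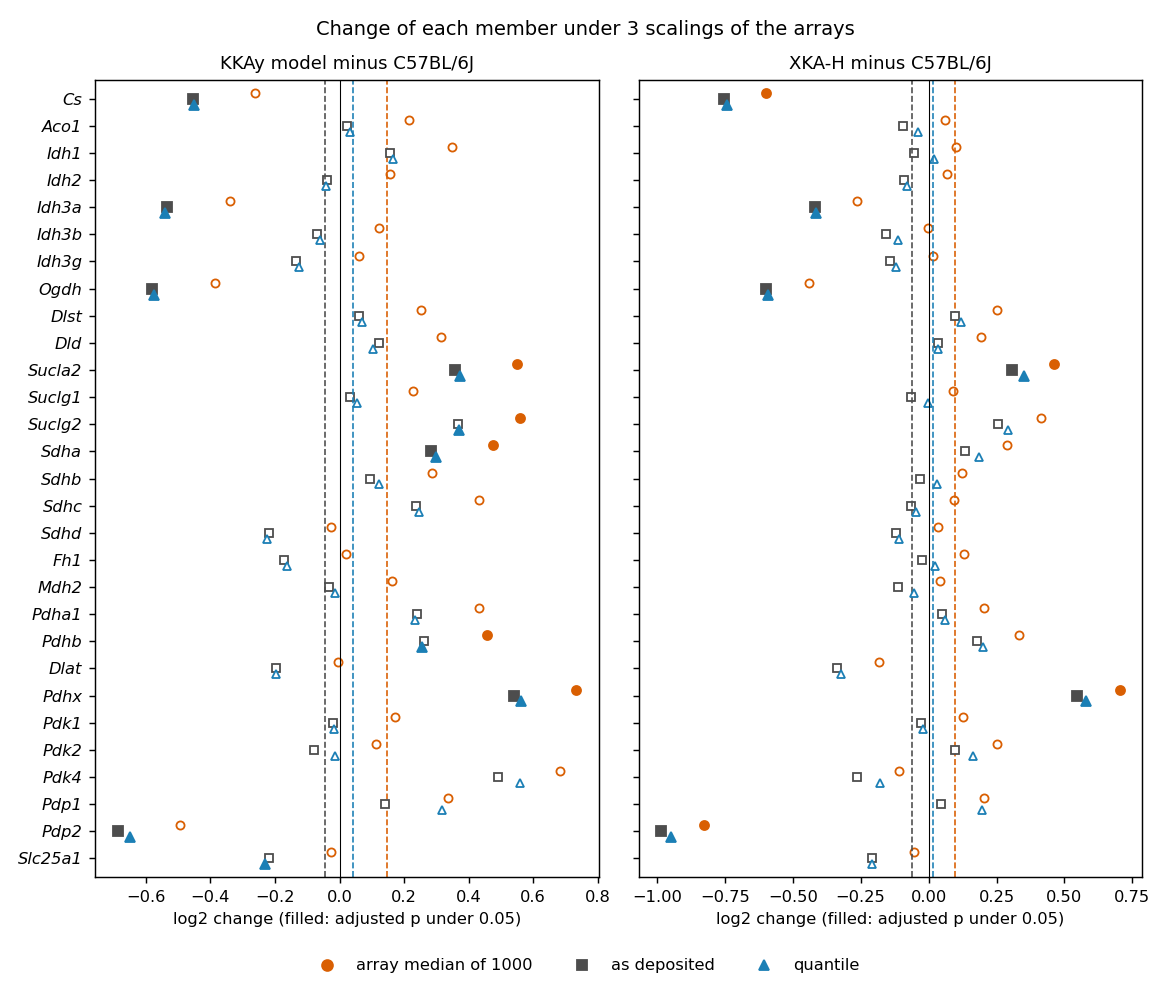
Log2 change of 29 members against C57BL/6J under the 3 scalings, with filled symbols for an adjusted p under 0.05 and a dashed line at the median of all genes for each scaling. Circles (array median of 1000) lie to the right of squares (as deposited), and Cs, Idh3a, Ogdh and Pdp2 are filled on the left for squares and triangles (quantile) in the KKAy model, while Pdhx and Sucla2 are filled on the right under each scaling.

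Of the 32 genes, 10 had 1 probe set and 22 had several, and a gene is represented by the brightest. For Suclg2 the second probe set was called higher as well, at 0.64 (adjusted p = 0.00532) between the KKAy model and C57BL/6J and at 0.58 (adjusted p = 0.0177) in XKA-H. The second probe set of Idh1 was called higher in the KKAy model, at 0.46 (adjusted p = 0.0239), where the brightest was not. Adjusted p over all probe sets are used here, where 6.07% were called higher and 2.38% lower between the KKAy model and C57BL/6J, and 3.32% and 1.46% between XKA-H and C57BL/6J. The second bright probe sets of Sdha and Pdhb gave 0.22 (adjusted p = 0.395) and 0.22 (adjusted p = 0.45), in the same direction and not called. That of Pdha1 gave -0.095 (adjusted p = 0.788). Pdhx, Pdk4 and Pdp2 have 1 probe set each, so no second one bears on them.

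For Cs the 3 probe sets gave -0.26 (adjusted p = 0.341), 0.042 (adjusted p = 0.92) and 0.41 (adjusted p = 0.07) between the KKAy model and C57BL/6J, on both sides of 0. Between XKA-H and the KKAy model they gave -0.33 (adjusted p = 0.578), -0.48 (adjusted p = 0.35) and -0.18 (adjusted p = 0.785), all below 0 and none called, where 0.0355% of probe sets were called higher and 0.0444% lower. Between XKA-H and C57BL/6J they gave -0.60 (adjusted p = 0.0221), -0.44 (adjusted p = 0.123) and 0.23 (adjusted p = 0.464), so the call of Cs rests on its brightest probe set. For Idh3a, the 4 probe sets above the array median gave -0.34, 0.27, 0.29 and -0.15 between the KKAy model and C57BL/6J, and none was called. Ogdh has a second probe set with a mean below the array median, which gave -2.58 (adjusted p = 0.0174). The brightest probe sets of Aco1, Sdha, Suclg2, Idh1, Idh3b and Dlat carry the suffix by which the maker marks probes that can also match other transcripts.

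**Figure D5:**
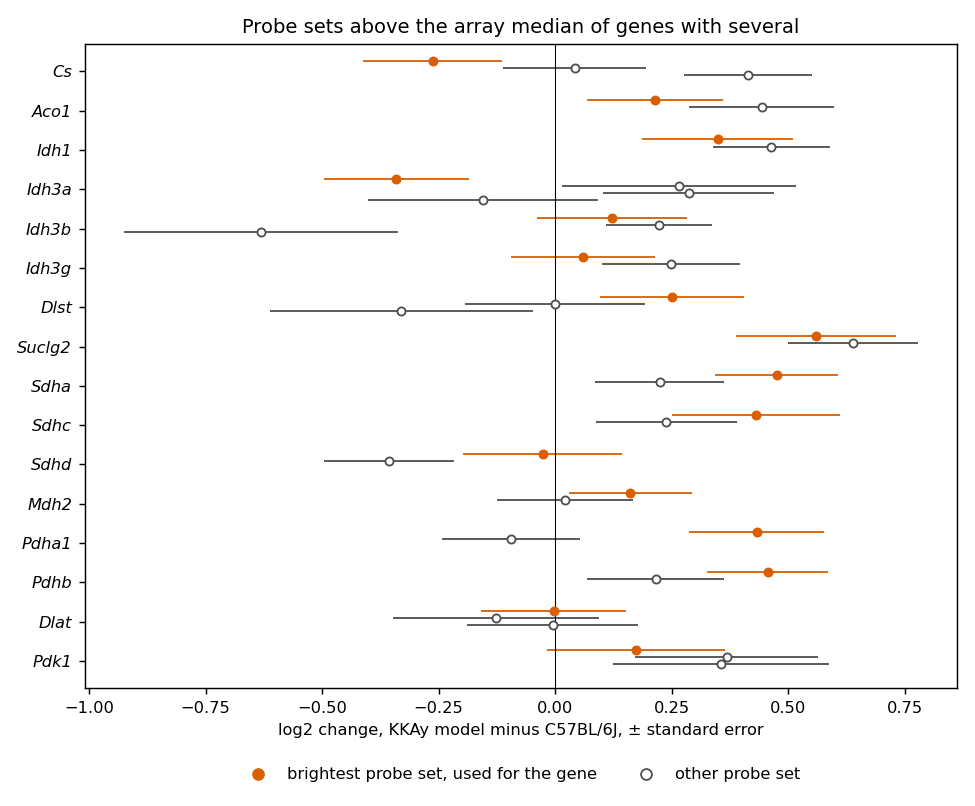
Log2 change between the KKAy model and C57BL/6J, with the standard error as a bar, for each probe set above the array median of the 16 genes that have several. Filled points are the brightest probe set, which stands for the gene. The points of Suclg2 lie close together at 0.56 and 0.64, while those of Cs run from -0.26 to 0.41.

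Around the cycle, 30 of 34 genes listed as connected to it could be tested, of which the KKAy model had 6 higher and 2 lower than C57BL/6J. The largest changes were in Got1, the cytosolic aspartate aminotransferase, at -1.57 (adjusted p = 0.00574), Nnt, which passes hydride from NADH to NADP in the inner mitochondrial membrane, at 1.49 (adjusted p = 4.94e-07), Me1, the cytosolic malic enzyme, at 1.31 (adjusted p = 0.000255), and Acss2, the cytosolic acetyl-CoA synthetase, at -0.94 (adjusted p = 0.0018). C57BL/6J mice are known to carry a deletion within Nnt. The other 4 called were higher, and they include Sdhaf1 and Sdhaf2, assembly factors of succinate dehydrogenase, at 0.70 (adjusted p = 0.00186) and 0.42 (adjusted p = 0.0285), named after their values were seen. In XKA-H against C57BL/6J, 5 were higher and 1 lower, led by Nnt at 1.61 (adjusted p = 2.28e-07), Acss2 at -1.04 (adjusted p = 0.00112), Me1 at 0.94 (adjusted p = 0.00688) and Pcx, pyruvate carboxylase, the other entry of pyruvate into the cycle, at 0.70 (adjusted p = 0.00393). None was called between XKA-H and the KKAy model after median scaling, where Gpt2, the mitochondrial alanine aminotransferase, had 0.45 (adjusted p = 0.34) and was called higher as deposited (adjusted p = 0.0442) and after quantile normalization (adjusted p = 0.00433). As deposited, the KKAy model had 3 connected genes higher and 4 lower than C57BL/6J.

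Of 15 transcription regulators of these genes, 3 were higher and none lower in the KKAy model than in C57BL/6J, and these were Srebf1, the regulator of fat synthesis, at 1.99 (adjusted p = 9.21e-06), Foxo1, the insulin-restrained regulator of gluconeogenesis and Pdk4, at 0.71 (adjusted p = 0.00915), and Nr3c1, the glucocorticoid receptor, at 0.40 (adjusted p = 0.029). In XKA-H against C57BL/6J these 3 and Ppara, the fasting regulator of fat oxidation, were higher, with Ppara at 0.60 (adjusted p = 0.0293). Of 11 tested PPARA target genes, which include Pdk4, Fgf21 was higher at 1.80 (adjusted p = 0.00352) and Cyp4a14 lower at -5.91 (adjusted p = 4.33e-06) in the KKAy model, and no other was called. As deposited, the KKAy model had 2 regulators higher and 1 lower.

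Neighbouring mitochondrial pathways give a scale for these counts. Of 41 nuclear-encoded respiratory chain genes, none was higher and 1 was lower in the KKAy model than in C57BL/6J, with a median change of 0.22. The lower one was Cox7c, a subunit of cytochrome c oxidase named after its value was seen, at -1.03 (adjusted p = 0.0112). Its signal lay close to the array median, with means of 2.46 times that median in C57BL/6J and 1.24 times in the KKAy model. KKAy model mouse 2 lay below the array median, at 0.783. Cox6c, another subunit of the same enzyme, had means of 278 and 306 in these groups. Whether the probe set used reports the level of Cox7c was not tested. Of 19 beta-oxidation genes, 6 were higher and none lower, with a median of 0.25. As deposited these counts were 0 and 2 for the respiratory chain and 3 and 0 for beta-oxidation, and after quantile normalization 0 and 4, and 6 and 2. The medians of the citrate cycle enzymes and of the pyruvate dehydrogenase subunits were 0.21 and 0.44, and that of all genes was 0.15. Between XKA-H and the KKAy model, no gene of these lists was called, and the medians were -0.12 for the citrate cycle, -0.15 for the subunits, -0.13 for the respiratory chain and -0.10 for beta-oxidation.

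The tissue label was checked against markers, whose signals were summed as multiples of the array median. All 10 hepatocyte markers lay above the array median, and their sum ran over 2858 to 4718 in C57BL/6J, 3280.0 to 5069 in the KKAy model and 3377 to 4407 in XKA-H. The 3 erythroid markers measured summed to 7.77 to 16.4 in C57BL/6J, 25.4 to 42.2 in the KKAy model and 22.8 to 31.99 in XKA-H, and most of that sum was Alas2, the erythroid enzyme of heme synthesis. Alas2 was higher in the KKAy model at 1.88 (adjusted p = 1.46e-06) and in XKA-H at 1.42 (adjusted p = 6.74e-05). Slc4a1 had -0.78 (adjusted p = 0.181) and -0.42 (adjusted p = 0.597) and was not called. Hba-a1 had 0.53 (adjusted p = 0.665) and -0.31 (adjusted p = 0.85) and was not called either. Hba-a1 was the 1 erythroid marker with a mean signal below the array median, so no level or lack of change is read from it. The 5 adipocyte markers measured, of which 3 lay below the array median, summed to 7.08 to 10.6, 10.7 to 69.5 and 9.01 to 19.9 in the same order of groups. The upper end in the KKAy model was set by Cidea in mouse 4, at 54.7, where mouse 1 had 0.118. The sums of 8 macrophage genes, of which 1 lay below the array median, ran over 84.9 to 134, 83.1 to 197 and 67.5 to 118. Those of 8 endothelial genes, of which 1 lay below the array median, ran over 57.96 to 85.6, 82.4 to 104 and 59.4 to 113. The part of these cells in the members' changes was not tested.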

How the data were processed

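Liver RNA of 15 mice was hybridised to Affymetrix mouse 430 2.0 arrays, 1 mouse an array. The values that the authors deposited are linear intensities of probe sets. Their methods name ArrayTrack and a scaling to a median of 1000, and the deposited intensity values have medians of 127 to 182, so each array was scaled to a median of 1000 here. The sources used here do not say how probes were summarised. The number of arrays, the scaling and the choice of probe set each limit what can be stated.

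Of 45101 probe sets, 34958 had 1 gene symbol, 932 several and 9211 none in the platform annotation, and symbols were updated through Entrez identifiers for 34754. The highest correlation between arrays was 0.943. Control probe sets with a symbol (13) were left out. For each of 18193 genes the brightest probe set by mean log2 signal was kept. Log2 signals were compared using limma 3.58.1 (R 4.3.3, trend on intensity), all 15 arrays in 1 fit with a shared spread, two-sided, at a Benjamini-Hochberg adjusted p under 0.05 over all genes, and the fit was tested on simulated data. The standard error of a KKAy model minus C57BL/6J change had a median of 0.28 over genes. The difference between the group means of a member was also tested with an exact two-sided permutation test. A group of mice is the group named in the sample titles, and replicate numbers were taken from the same titles. Alternatives changed the scaling, the choice of probe set, a pseudocount of 100, dim genes, the test, the arrays in the fit and the pairing. The members and gene lists were chosen with earlier results of these data known. The text names all members and, of the connected genes, transcription regulators and PPARA targets, up to 4 a list and comparison with the largest change among those called. Motifs and subunit ratios were chosen after values were seen. Promoter windows came from RefSeq on GRCm38.p6 and were found for 28 members. The R package data.table (version 1.17.8) read the tables, and figures were drawn with Python 3.11.15, pandas 2.3.3 and matplotlib 3.10.9. Other parts of the study, such as cell cultures, serum values, the lower dose and metformin, were not analysed here.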

Additional observations from a re-analysis of the deposited data

Results flagged for a closer look

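Each of 32 members was examined in each of the 3 groups for 1 mouse far from the other 4, by the gap to the nearest mouse divided by the range on the log2 scale, with a limit of 0.71 for 5 mice, and signals are given in units with the array median at 1000. Of 96 such groups 8 passed, and chance alone passes about 1 in 20. KKAy model mouse 5 was low for Cs at 33576 units with the others from 41674 to 44664 (gap over range 0.757), for Sucla2 at 143218 with the others from 184948 to 205143 (0.712) and for Mdh2 at 124742 with the others from 160589.8 to 173546 (0.765). These 3 flags fall on the array in which the members together were 0.24 below their group on the log2 scale after median scaling. That deviation was -0.03 as deposited and 0.0094 after quantile normalization, and the flags were not computed under those scalings. Pdk4 was low in C57BL/6J mouse 5 at 1619 units, with the others from 3085 to 3808 (0.754), and in XKA-H mouse 5 at 2179 units, with the others from 2798 to 3037 (0.753). Pdk2 was low in XKA-H mouse 1 at 2932 units, with the others from 4463 to 5176 (0.739). Pdk3 was high in KKAy model mouse 4 at 515 units, with the others from 122 to 183 (0.719), and Me2 was low in C57BL/6J mouse 2 at 566 units, with the others from 874 to 997 (0.768), and both of these signals lie below the array median.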

How the results depend on the processing

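Members called higher in the KKAy model than in C57BL/6J numbered 5 in the reported setting and 3 as deposited. They numbered 2 with the mean of a gene's probe sets, and 8 with array weights and with Dunnett comparisons not adjusted over genes. Of all genes, 10.5% were called higher as reported, 6.15% as deposited and 8.72% after quantile normalization. For settings other than these 3 scalings the share of all genes is not given, so the counts here and below describe the members only and are not read against each other. Leaving out 1 mouse gave 2 to 7, with 2 without C57BL/6J mouse 3 or mouse 4 and 3 without KKAy model mouse 2 or mouse 4. Counts called lower, 0 as reported, were 4 as deposited, 5 under quantile normalization and 1 under the mean of probe sets, and 0 to 0 leaving out 1 mouse. Between XKA-H and the KKAy model the count stayed at 0 in both directions except for 1 lower, Pdk4, with unadjusted Dunnett comparisons. For XKA-H against C57BL/6J, members called higher, 2 as reported, were 1 with the mean of probe sets, every probe set tested, no intensity trend, adjusted Dunnett comparisons and the 10 arrays of the 2 groups, 4 with unadjusted Dunnett comparisons and 1 to 2 leaving out 1 mouse. Members called lower, 2 as reported, were 4 both as deposited and under quantile normalization, 1 under the mean of probe sets and with no intensity trend, 0 with adjusted Dunnett comparisons, and 2 to 2 leaving out 1 mouse. With the mean of probe sets, the KKAy model minus C57BL/6J change turned to 0.0645 for Cs, 0.0144 for Idh3a and -0.32 for Sdha. The probe sets of Cs and Idh3a, all above the array median, lie on both sides of 0, and the mean of Sdha takes in 2 probe sets below the array median. That of Slc25a1 turned to 0.0021 with array weights, 0.0563 without KKAy model mouse 5 and 0.0081 without C57BL/6J mouse 1, in a range of -0.0668 to 0.0563 over the mice left out. The cause of the other changes was not tested. Over all genes, the deviations of mice of the same number had correlations from -0.04 to 0.09. Values this near 0 show no pairing by number, but cannot settle whether mice of 1 number were handled together. With the replicate number as a block the counts were 5 and 0, 0 and 0, and 2 and 2 in the 3 comparisons.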
